A study of Mus musculus with 46 samples.

Results

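The genes described here make, fold around or ripen the contents of the insulin granule: the prohormone convertases Pcsk1 and Pcsk2, their partners Pcsk1n and Scg5, the carboxypeptidase Cpe, the granins Chga and Chgb, the zinc transporter Slc30a8, the granule membrane protein Ptprn and the oxidoreductase Ero1lb. They were taken by gene symbol, and each symbol occurred at 1 identifier, giving 10 genes of the 55487 listed for each library. Values come from 33 mouse islet libraries of the 46 libraries in the series, all from total RNA of islets that had been isolated and then kept overnight in culture. In the Tfam experiment, 5 female and 3 male libraries are labelled Tfam control, and 4 female and 2 male libraries are labelled Tfam KO. In the Clec16a experiment, 4 libraries labelled control and 4 labelled KO come from the diet RFD, and 6 labelled control and 5 labelled KO from the diet HFD. The labels give sex for the Tfam libraries alone, do not write out RFD or HFD, and give no age. They name no allele, no Cre driver and no cell type in which a gene was deleted. The titles number the libraries as biological replicates without naming animals, so p-values measure the spread between these libraries.

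Proinsulin is folded in the endoplasmic reticulum, where Ero1lb, the pancreatic form of ERO1, passes oxidising equivalents to protein disulfide isomerase as disulfide bonds form. In the maturing granule PC1/3, encoded by Pcsk1, and PC2, encoded by Pcsk2, cut proinsulin at pairs of basic residues, and carboxypeptidase E trims the exposed residues. The granins Chga and Chgb aggregate in the acidic trans-Golgi network as granules form, Slc30a8 (ZnT8) loads them with the zinc that insulin hexamers bind, and Ptprn (IA-2) spans the granule membrane. These genes are also active in other neuroendocrine cells, among them the alpha and delta cells of the islet.

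The upstream sequences of 4 of these genes are shown because Pcsk1, Chga and Ero1lb were the genes with the smallest adjusted p in Tfam KO islets, while Chgb moved in opposite directions in the 2 experiments. All are from RefSeq, GRCm38.p6, printed 5′ to 3′ on the plus strand, which is the coding strand of all 4 genes, and end before the first annotated exon base, except for Chgb, whose annotated gene span starts upstream of the 30 bases shown. Capitals mark matches to the cAMP response element TGACGTCA or its half-site TGACG, or, in Ero1lb, to the endoplasmic reticulum stress element, a CCAAT box and a CCACG box 9 bases apart, which reads in reverse complement on the printed strand. The stretches are chr13:75089607-75089825 for Pcsk1, chr12:102554691-102554940 for Chga, 30 bases at chr2:132781559-132781588 for Chgb and chr13:12565633-12565873 for Ero1lb.
Pcsk1: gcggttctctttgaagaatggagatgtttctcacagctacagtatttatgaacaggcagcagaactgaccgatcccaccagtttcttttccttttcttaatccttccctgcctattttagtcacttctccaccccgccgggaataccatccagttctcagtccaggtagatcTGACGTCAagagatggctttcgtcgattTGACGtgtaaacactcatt
Chga: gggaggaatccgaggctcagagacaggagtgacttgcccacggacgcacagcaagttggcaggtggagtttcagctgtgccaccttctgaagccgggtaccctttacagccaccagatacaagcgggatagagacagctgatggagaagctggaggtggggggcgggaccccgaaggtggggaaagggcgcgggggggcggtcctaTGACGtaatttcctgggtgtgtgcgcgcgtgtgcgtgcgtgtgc
Chgb: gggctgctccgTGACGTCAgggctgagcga
Ero1lb: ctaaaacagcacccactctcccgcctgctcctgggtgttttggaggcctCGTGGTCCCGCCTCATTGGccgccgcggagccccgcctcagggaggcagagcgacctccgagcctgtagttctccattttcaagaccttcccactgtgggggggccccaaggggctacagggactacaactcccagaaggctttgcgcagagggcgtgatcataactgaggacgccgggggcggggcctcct

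Motifs were sought on both strands of the 250 bases before the RefSeq start, in the 8 genes with an entry in the promoter table; Cpe and Slc30a8 had none. The full element TGACGTCA stood in Pcsk1, 78 to 71 bases before the start, and in Chgb, 72 to 65 bases before it, so in 2 of 8 genes, against 1.55% of 32851 promoters. The half-site TGACG, which every full element contains, was found in 6 of 8, against 17.8% of promoters. In Chga it lay 44 to 40 bases before the start. The endoplasmic reticulum stress element, as spelled out above, was found in 1 of 8, Ero1lb, 201 to 183 bases before its start, against 0.113% of promoters. The amino acid response element TGATGNAA was found in 0 of 8, against 3.45%. A match describes these letters alone.

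On GRCm38, Pcsk1 (ENSMUSG00000021587) spans chr13:75089826-75134861 and Ero1lb (ENSMUSG00000057069) chr13:12565874-12611396, both on the plus strand. Pcsk2 (ENSMUSG00000027419, chr2:143546156-143816285) and Chgb (ENSMUSG00000027350, chr2:132781278-132795079) are on the plus strand of chromosome 2, and Scg5 (ENSMUSG00000023236, chr2:113776362-113829121) on its minus strand. Chga (ENSMUSG00000021194) lies at chr12:102554969-102565028, Slc30a8 (ENSMUSG00000022315) at chr15:52295553-52335798 and Pcsk1n (ENSMUSG00000039278) at chrX:7919822-7924410, all on the plus strand. Cpe (ENSMUSG00000037852, chr8:64592542-64693054) and Ptprn (ENSMUSG00000026204, chr1:75247027-75264502) are on the minus strand. The counts run over the exons of each gene. Genes in antisense or overlapping annotation were low: Pcsk2os1 or Pcsk2os2 over Pcsk2 reached at most 1947 counts, and Gm28294 over Ptprn at most 102. Whether counting used the strand is not given in the sources used here, so reads of such pairs cannot be told apart.

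Depth was 55223041 to 83342809 counts a library for Tfam islets and 16235173 to 55810879 for Clec16a islets. Tfam transcript lay at 16.01 to 18.94 CPM (the count relative to the TMM-scaled library size, here and throughout) in the 6 Tfam KO libraries and at 37.81 to 44.65 CPM in the 8 controls, a log2 fold change of −1.21 (SE 0.06, adjusted p = 3.76e-10). The transcript of Clec16a did not fall where the labels say KO: the log2 difference from control was 0.13 on RFD (SE 0.13, adjusted p = 0.612) and 0.08 on HFD (SE 0.11, adjusted p = 0.740). These adjusted p-values, and all others for single genes, are from edgeR's quasi-likelihood F-test with Benjamini-Hochberg adjustment over all genes tested, and a gene was called at 0.05 or less. One library stood apart: in replicate 4 of the libraries labelled Clec16a KO on HFD, Chgb, Slc30a8 and Ptprn lay within or beyond the control range, away from the rest of its group, so the tests of the 10 genes on that diet, and the other results there that it moves most, are given with and without it. It was singled out by its values of these genes. All p-values, calls and counts without it, of these genes, their ratios and other genes, are therefore a description and no support, on either diet.

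All 10 genes were strongly expressed. The deposited TPM of these genes followed the count over the combined length of all annotated exons of the gene, rather than over a transcript's length. Over the 18 control islet libraries, Chga had the highest deposited TPM, from 11510 to 16900 with a median of 13500. Cpe followed with a median of 3076 TPM (2140 to 3845) and Chgb with 1558 TPM (1165 to 1789). Scg5 (1229), Pcsk2 (1110), Pcsk1n (1109) and Slc30a8 (844.6) followed by median TPM, and their ranges over libraries overlapped. Ero1lb had a median of 499 TPM (329.1 to 1174), Ptprn 324 (229.3 to 487.1) and Pcsk1 240.8 (164.4 to 505.3), and these 3 ranges overlapped too. The order of the last pair differed between experiments: mean Pcsk1 was 363.1 and 436.2 TPM in female and male Tfam controls against 312.8 and 309.5 TPM for Ptprn, but 187.5 and 199.9 TPM in Clec16a controls on RFD and HFD against 352 and 346.1 TPM for Ptprn. In the 13 liver libraries of the series, Ero1lb lay at 8.211 to 19.44 TPM and Cpe at 0.649 to 119.9 TPM, and each of the other 8 genes at 0.3968 TPM or less. In control islets the 10 genes together took 3.005% to 3.771% of all counts.

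Tfam encodes the factor that packages mitochondrial DNA and activates its transcription, and the Tfam experiment asks how loss of Tfam changes islet RNA. Of the 10 granule genes, 6 were lower in Tfam KO than in control islets with sex as an additive term, none was higher, and all 10 estimates lay below 0. Ero1lb was 0.52 times the control level and Chga 0.56 times, while Slc30a8 (0.66 times) and Pcsk1 (0.71 times) fell less. Chgb (0.83 times) and Pcsk2 (0.85 times) were called with smaller differences. Among all 19752 genes tested, 9.29% were called lower and 11.6% higher. The median log2 fold change was −0.25 over the 10 genes and −0.01 over all genes. The 10 genes together took 3.087% to 3.463% of counts in the controls and 2.42% to 2.771% in the KO libraries.

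Pcsk1, the convertase that makes the first cuts in proinsulin, was at 885.9, 947.5, 1103, 905.1 and 974.7 CPM in the female controls and at 947, 1324 and 1113 CPM in the male controls. In KO islets it was at 678.7, 676.8, 702.6 and 756.6 CPM in females and at 718.5 and 806.7 CPM in males. Every KO library was thus below every control library, with a log2 fold change of −0.49 (SE 0.08, adjusted p = 2.89e-04). Pcsk2, the convertase that prefers the other junction of proinsulin, averaged 3792 ± 437.9 CPM in the 8 controls and 3253 ± 243.6 CPM in the 6 KO libraries (mean ± SD), and its groups overlapped. Its log2 fold change was −0.23 (SE 0.07, adjusted p = 0.0316), and the call was lost without control male 2, control male 3, KO female 1, KO female 4 or KO male 2 (adjusted p from 0.0624 to 0.0796 in these fits), and also with no filter on low counts (0.101) or no sex term (0.0765).

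The convertases' partners and the carboxypeptidase were below control in estimate and missed the threshold. Pcsk1n, whose product proSAAS inhibits PC1/3, averaged 1098 ± 171.7 CPM in the 8 controls and 953.1 ± 128.1 CPM in the 6 KO libraries (mean ± SD, log2 fold change −0.22, SE 0.09, adjusted p = 0.0950). Scg5, which encodes 7B2, the chaperone that proPC2 needs to become active, averaged 992.1 ± 178.6 and 866.3 ± 20.66 CPM in the same order (−0.20, SE 0.10, adjusted p = 0.161). Cpe averaged 4427 ± 440.7 and 3902 ± 236.8 CPM (−0.18, SE 0.07, adjusted p = 0.0886). All 3 genes overlapped between genotypes. DESeq2's Wald test, which called 2392 of all genes lower where edgeR called 1834, also called Cpe (adjusted p = 0.0326) and Pcsk1n (adjusted p = 0.0472).

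The granins differed in size of change. Chga was at 15910, 15330, 16300, 21360 and 17020 CPM in female controls, at 15270, 17410 and 16280 CPM in male controls, at 7810, 11460, 10850 and 10170 CPM in female KO islets and at 8201 and 8874 CPM in male KO islets. The highest KO library was at 11460 CPM and the lowest control at 15270 CPM, and the log2 fold change was −0.83 (SE 0.10, adjusted p = 1.24e-05). Chgb averaged 2125 ± 202 CPM in the 8 controls and 1771 ± 176.3 CPM in the 6 KO libraries (mean ± SD), and male KO replicate 1, at 2067 CPM, lay inside the control range. Its log2 fold change was −0.26 (SE 0.08, adjusted p = 0.0246), and the call was lost without KO female 3, KO female 4 or KO male 2 (adjusted p of 0.0622, 0.0640 and 0.0738).

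Slc30a8 was at 981.6, 996.7, 807, 809.5 and 1089 CPM in female controls and at 1025, 1139 and 1129 CPM in male controls. In KO islets it was at 583.5, 679.7, 761.4 and 737.9 CPM in females and at 567.3 and 585.2 CPM in males. The groups did not overlap, and the log2 fold change was −0.61 (SE 0.10, adjusted p = 4.50e-04). Ptprn showed no difference past the threshold, with 627.7 ± 174.9 CPM in the 8 controls and 610.4 ± 31.08 CPM in the 6 KO libraries (mean ± SD). Its log2 fold change was −0.04 (SE 0.15, adjusted p = 0.893), with a 95% interval from −0.33 to 0.25. The controls ranged from 436.4 to 968.6 CPM, both ends in females.

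Ero1lb changed the most of the 10. It was at 2215, 2490, 2425, 2462 and 2359 CPM in female controls and at 3481, 2838 and 2319 CPM in male controls, against 1187, 1332, 1172 and 1481 CPM in female KO and 1537 and 1240 CPM in male KO islets. The highest KO value was 1537 CPM and the lowest control 2215 CPM, and the log2 fold change was −0.94 (SE 0.09, adjusted p = 2.20e-06). Pcsk1, Chga, Slc30a8 and Ero1lb were the 4 of 10 genes whose genotypes did not overlap, a property of 7.49% of all genes tested.

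**Figure D1:**
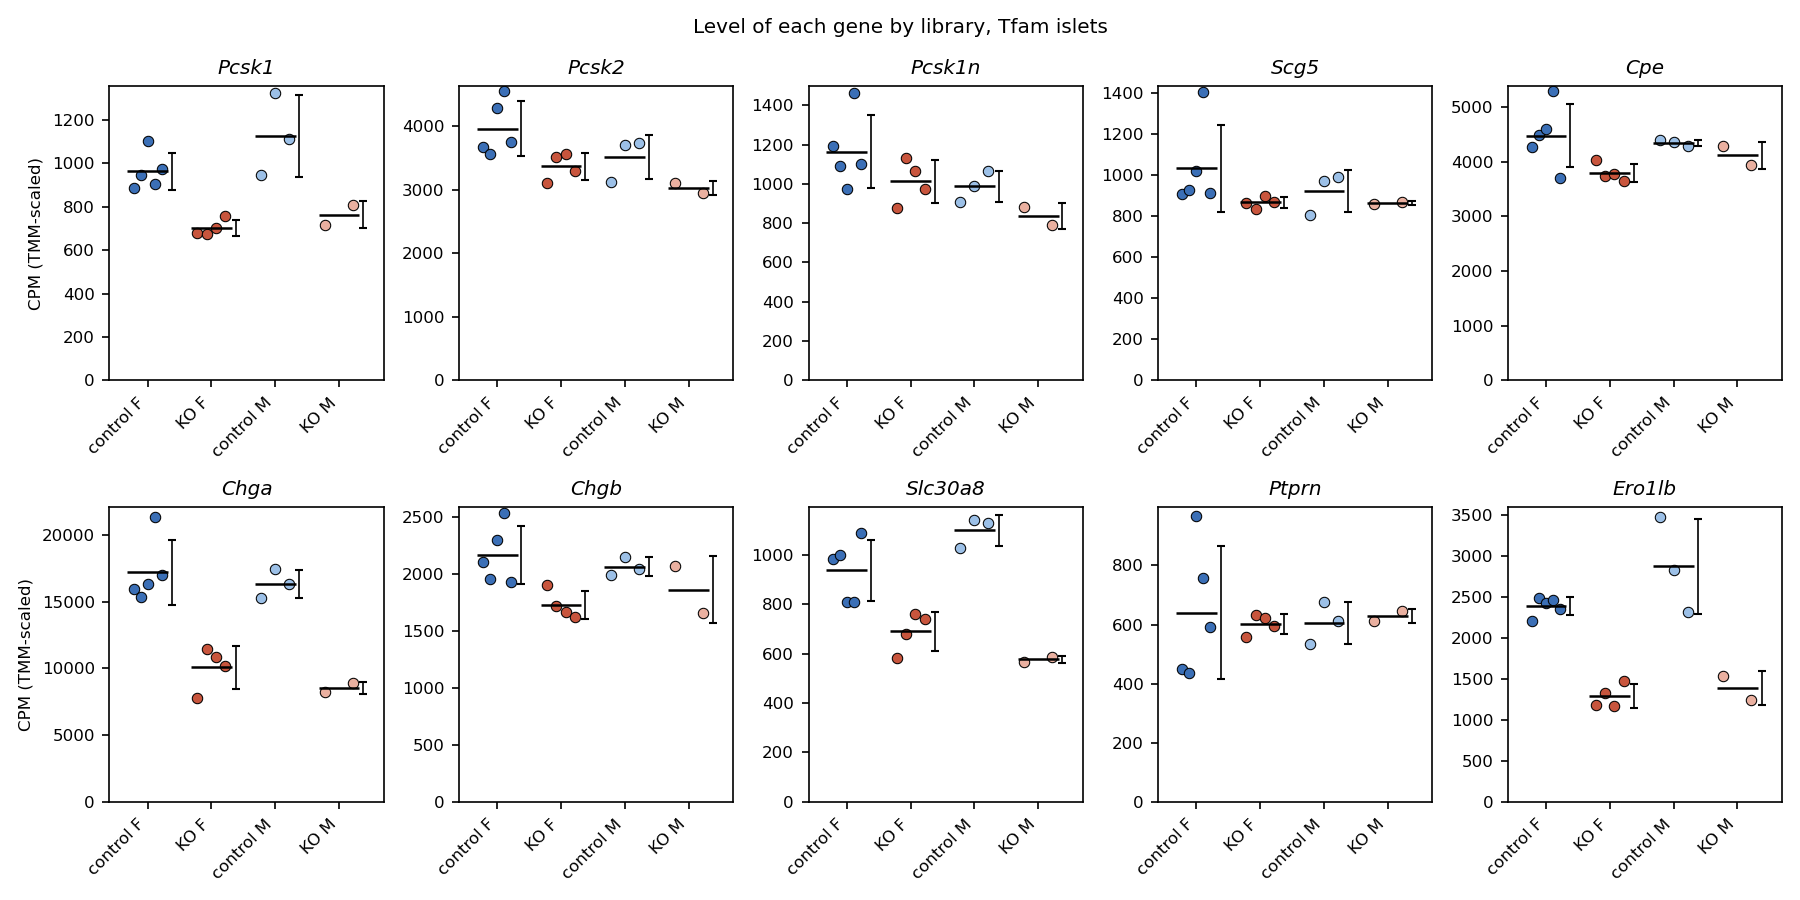
CPM of each of the 10 genes in each Tfam islet library by genotype and sex, with 1 point per library, horizontal lines at group means and bars of 1 SD. In the panels of Pcsk1, Chga, Slc30a8 and Ero1lb all 6 KO points lie below all 8 control points, while Ptprn shows controls from 436.4 to 968.6 CPM on both sides of the KO points.

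These calls depend in part on scaling. With library sizes taken as total counts without TMM, the median of all genes moved to 0.20, and the genes called were 6208 higher and 617 lower in place of 2285 and 1834. Pcsk1, Chga, Slc30a8 and Ero1lb were still called lower, Pcsk2 (log2 fold change −0.02, adjusted p = 0.858) and Chgb (−0.05, adjusted p = 0.602) were not, and Cpe (0.03), Scg5 (0.02) and Ptprn (0.17) turned to the positive side. Ins1, Ins2 and Iapp together took 17.37% to 24.55% of counts in control and 11.61% to 14.91% in KO libraries.

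In each sex taken alone, Pcsk1, Chga, Slc30a8 and Ero1lb were again called lower. In females 5 of the 10 genes fell, where 4.17% of genes tested were called lower and 6.67% higher. The log2 fold changes were −0.89 for Ero1lb (adjusted p = 1.18e-04), −0.77 for Chga (5.89e-04), −0.45 for Pcsk1 (0.00736), −0.44 for Slc30a8 (0.0129) and −0.33 for Chgb (0.0430). In males 4 fell, where 3.69% were called lower and 5.24% higher. The values there were −1.05 for Ero1lb (adjusted p = 6.56e-04), −0.93 for Slc30a8 (8.46e-04), −0.93 for Chga (0.00233) and −0.57 for Pcsk1 (0.0160). The male call of Pcsk1 was lost without control male 2 or either KO male (adjusted p from 0.0703 to 0.164), and the female call of Chgb in 7 of the 14 fits without 1 library. On total counts, Pcsk1 (adjusted p = 0.114), Slc30a8 (0.172) and Chgb (0.418) lost their calls in females and Pcsk1 (0.101) in males, while the genes called became 4444 higher and 322 lower in females and 2860 higher and 309 lower in males.

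The interaction of genotype with sex was called for 0% of genes, and so for none of the 10, by edgeR, although 1230 genes had an unadjusted p under 0.05 and DESeq2's Wald test called 34. Slc30a8 had the smallest p of the 10, with a KO effect lower in males by a log2 difference of −0.49 (SE 0.18, unadjusted p = 0.0137, adjusted p = 0.691). In female KO islets it averaged 690.6 ± 79.24 CPM (SD, n = 4) against 936.8 ± 124.3 CPM in controls, and in male KO islets 576.2 ± 12.61 CPM (SD, n = 2) against 1098 ± 63.39 CPM.

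Beta cell markers were lower as a list, and markers of other cell types varied. All 9 beta cell markers were lower in Tfam KO islets, and their summed level lay at 105800 to 141600 CPM in the KO libraries and at 188600 to 295400 CPM in the controls. Of 6 alpha cell markers 0 were called, with sums of 41360 to 53820 CPM in female KO and 49730 to 106300 CPM in female controls, and, without overlap, 38700 to 51610 CPM in male KO and 24690 to 34380 CPM in male controls. Of 4 delta cell markers 2 were lower. In males the summed duct markers (336.4 to 403.8 CPM in KO, 249.6 to 268.6 CPM in controls) and macrophage markers (181.9 to 190.6 and 110 to 120 CPM) were also apart, while in females both overlapped. Summed fibroblast markers were likewise apart in males (81.18 to 83.76 and 31.81 to 45.62 CPM) and overlapped in females. Of all genes tested, 45.6% did not overlap between male KO and male control libraries. Fibroblast markers were higher in 2 of 6, and exocrine markers were called in 0 of 12, with sums from 1083 to 18900 CPM over all Tfam libraries. In bulk islets, fewer cells of a type and less RNA per cell cannot be told apart, and the part of these markers in the changes of the 10 genes was not tested.

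Other genes of the granule and the secretory pathway are given by list, with counts as a description. They stand beside 11.6% of all genes tested called higher and 9.29% called lower. Of 12 other granule cargo and membrane genes, 6 were lower in Tfam KO islets and 0 higher, among them the insulin genes Ins1 (log2 fold change −1.26, SE 0.10, adjusted p = 1.76e-07) and Ins2 (−0.93, SE 0.10, adjusted p = 4.22e-06), the granin Scg3 (−0.46, SE 0.06) and the Golgi zinc transporter Slc30a5 (−0.32, SE 0.05), the last of which was not called on total counts (adjusted p = 0.162). Of 18 genes of proinsulin folding, 7 fell and 2 rose. Dnajb9, a co-chaperone of BiP, fell by 0.77 on the log2 scale, the secreted factor Manf by 0.66 and the oxidoreductase partner Txndc11 by 0.57. Ero1l, the widely expressed form of ERO1, rose by 0.60 (SE 0.07, adjusted p = 1.24e-05) in the same libraries in which its paralog Ero1lb fell.

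Of 10 other convertases and processing enzymes, Pcsk6 (log2 fold change 1.17, SE 0.11) and the carboxypeptidase Cpd (0.52, SE 0.09) rose and Furin (−0.30, SE 0.06) fell, the last without a call on total counts (adjusted p = 0.404). Of 25 genes of docking and exocytosis 7 fell, including Syt13 (−0.60, SE 0.06) and the granule-bound Rab27 effector Sytl4 (−0.63, SE 0.09), and 2 rose, including Doc2b (0.83, SE 0.14). Of 18 genes of granule biogenesis and traffic 3 fell, including Rab3a (−0.51, SE 0.08), and 4 rose, including the sorting receptor Sorl1 (0.64, SE 0.11). On total counts the docking list turned to 5 higher and 2 lower and the biogenesis list to 6 higher and 2 lower. The cargo list kept its side there with 0 higher and 4 lower, and the folding list with 2 higher and 4 lower.

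A ratio of 2 genes within 1 library does not depend on the library scaling. The ratio of Chga to Chgb counts was 3.97 to 6.69 in the 6 Tfam KO libraries and 7.10 to 8.82 in the 8 controls. It was lower in 6 of 6 KO libraries than in any control, by a mean log2 difference of −0.57, with an exact two-sided permutation p of 0.000794 within sexes, the smallest this design can give, and 0.00952 after Benjamini-Hochberg adjustment over 12 ratio tests. The ratio of Pcsk1 to Pcsk2 was lower by −0.26 on the log2 scale (exact permutation p = 0.00952, adjusted 0.0571). The ratio of Pcsk1 to its inhibitor Pcsk1n differed by −0.28 (exact permutation p = 0.0571, adjusted 0.137) and that of Pcsk2 to its chaperone Scg5 by −0.04 (exact permutation p = 0.526, adjusted 0.789).

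**Figure D2:**
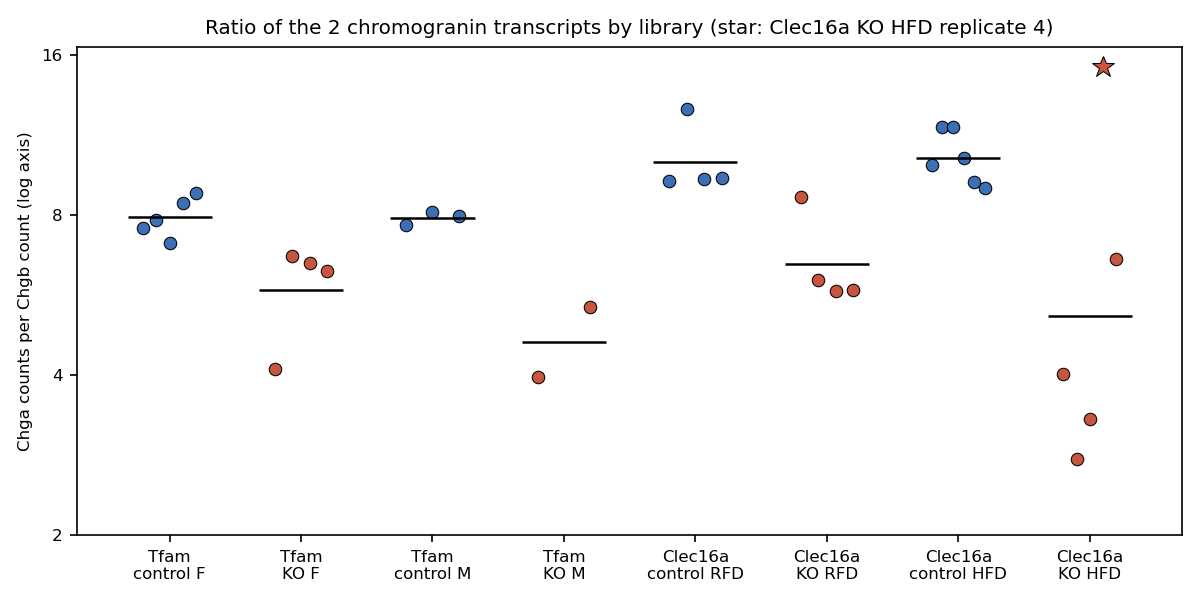
Ratio of Chga to Chgb counts in each islet library on a log2 axis, by experiment and group, with horizontal lines at geometric means and a star for replicate 4 of the libraries labelled Clec16a KO on HFD. The Tfam KO points lie at 3.97 to 6.69, all below the Tfam control points, and the starred library at 15.2 lies above every other library shown.

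Clec16a encodes an endolysosomal protein of the mitophagy pathway, and its islets were compared on each diet. On RFD, 1 of the 10 genes was called, Ptprn, which was 1.51 times as high in the libraries labelled KO as in controls. Chgb was 1.56 times as high and Slc30a8 0.61 times as high, and both groups were separate in both genes, but neither passed the threshold. The other 7 genes had log2 differences from −0.03 (Chga) to 0.20 (Cpe). Among 17254 genes tested, 3.99% were called higher and 3.54% lower.

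Ptprn was at 706.9, 705.5, 724.6 and 733.3 CPM in the RFD controls and at 1218, 1241, 956.9 and 922.6 CPM in the RFD libraries labelled KO. The controls lay close together and every library labelled KO lay above them, with a log2 fold change of 0.60 (SE 0.17, adjusted p = 0.0397). Of the 19 fits that left out 1 library, 7 did not call it, each leaving out an RFD library other than KO replicate 4 (adjusted p from 0.0502 to 0.107). It was also lost with a lane term (0.57, adjusted p = 0.0560) and with the level of exocrine markers as a covariate (0.54, adjusted p = 0.0593).

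Chgb was at 1765, 1757, 1909 and 1952 CPM in the RFD controls and at 2028, 3668, 3351 and 2472 CPM in the libraries labelled KO. The latter spread widely and none reached down to the controls, and the log2 fold change was 0.64 (SE 0.25, adjusted p = 0.127). Slc30a8 was at 752.1, 835.1, 654.7 and 645.4 CPM in controls and at 462.6, 427.7, 431.3 and 446.3 CPM in the libraries labelled KO (log2 fold change −0.71, SE 0.28, adjusted p = 0.131). The spread behind these tests is shared with the HFD groups. When only the RFD groups were fitted, Chgb (0.65, adjusted p = 0.0366) and Slc30a8 (−0.70, adjusted p = 0.00328) were called. With HFD replicate 4 of the libraries labelled KO left out of the full fit, their adjusted p was 0.0113 and 2.15e-04. That library was picked by its values of these genes, so the p-values without it are a description and no support. The fit of only the RFD groups leaves it out too. Non-overlap as in these 3 genes was found in 15.1% of all genes tested.

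The sequencing lane, taken from the file names, split the RFD libraries into 3 labelled KO and 2 controls on lane 7 and 1 labelled KO and 2 controls on lane 8. Within lanes 7 and 8 the mean log2 CPM of Chgb differed by 0.54 and 0.93, that of Slc30a8 by −0.83 and −0.60 and that of Ptprn by 0.54 and 0.77, all in the pooled direction. Ero1lb had a fitted log2 difference of 0.02 on RFD (SE 0.15, adjusted p = 0.959), and within lanes its values went in opposite directions, −0.25 and 0.40.

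On HFD, Chgb rose to 1.88 times the control level and Ptprn to 1.41 times in the libraries labelled KO, and both were called. Slc30a8, at 0.59 times, and Ero1lb, at 0.75 times, were below control in estimate and missed the threshold. The other 6 genes had log2 differences from −0.19 (Chga, adjusted p = 0.478) to 0.11 (Pcsk1n). Among all genes tested, 5.62% were called higher and 3.96% lower.

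Chgb was at 1797, 1930 and 2018 CPM in HFD controls 1 to 3 and at 2003, 1856 and 1959 CPM in controls 4 to 6, with a maximum of 2018 CPM in the group. In the libraries labelled KO it was at 4220, 5019, 4432, 1462 and 2957 CPM. Of these, 4 lay above every control and replicate 4 below every control, and the log2 fold change was 0.91 (SE 0.21, adjusted p = 0.0109). Slc30a8 had the reverse pattern, with controls at 651.6 to 842.4 CPM, median 716.6, and libraries labelled KO at 265.8, 326.9, 288.7, 952.9 and 346.2 CPM. Replicate 4 was the highest of all 11 HFD libraries, and the log2 fold change was −0.75 (SE 0.24, adjusted p = 0.0527).

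Ptprn was at 621.4 to 905.2 CPM in HFD controls, median 644.4, and at 1203, 1158, 1109, 642.6 and 966 CPM in the libraries labelled KO. Replicate 4 again lay among the controls and the other 4 above them, with a log2 fold change of 0.49 (SE 0.15, adjusted p = 0.0373). Of the 19 fits that left out 1 library, 8 did not call it, namely those without HFD control 2, 4, 5 or 6 or HFD library 1, 2, 3 or 5 labelled KO (adjusted p from 0.0577 to 0.116), and neither did the fit of the HFD groups alone (adjusted p = 0.0855). Ero1lb was at 1210 to 1684 CPM in controls, median 1342, and at 1197, 884.7, 1041, 1202 and 1030 CPM in the libraries labelled KO (−0.41, SE 0.13, adjusted p = 0.0558). It was the single one of the 10 genes without overlap on HFD, where 2.6% of all genes did not overlap.

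Without replicate 4 of the libraries labelled KO on HFD, 4 genes were called on that diet. That library was picked by its Chgb, Slc30a8 and Ptprn values, so the p-values that follow are a description alone. Chgb had a log2 fold change of 1.11 (adjusted p = 1.72e-05), Slc30a8 of −1.26 (5.37e-08), Ptprn of 0.62 (0.00116) and Ero1lb of −0.45 (0.0261). The number of all genes called rose from 1653 to 3369 on HFD and from 1298 to 2015 on RFD. Within lanes 7 (2 labelled KO, 3 controls) and 8 (3 and 3) the HFD differences in mean log2 CPM, with replicate 4 included, were 0.89 and 0.72 for Chgb, −1.18 and −0.80 for Slc30a8, 0.42 and 0.58 for Ptprn and −0.38 and −0.42 for Ero1lb. On total counts the genes called on HFD became 1775 higher and 352 lower and the median of all genes 0.12. Pcsk1 (0.07) and Pcsk2 (0.07) then turned to the positive side on HFD, and Chga (0.0007) on RFD, with none of these 3 called.

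**Figure D3:**
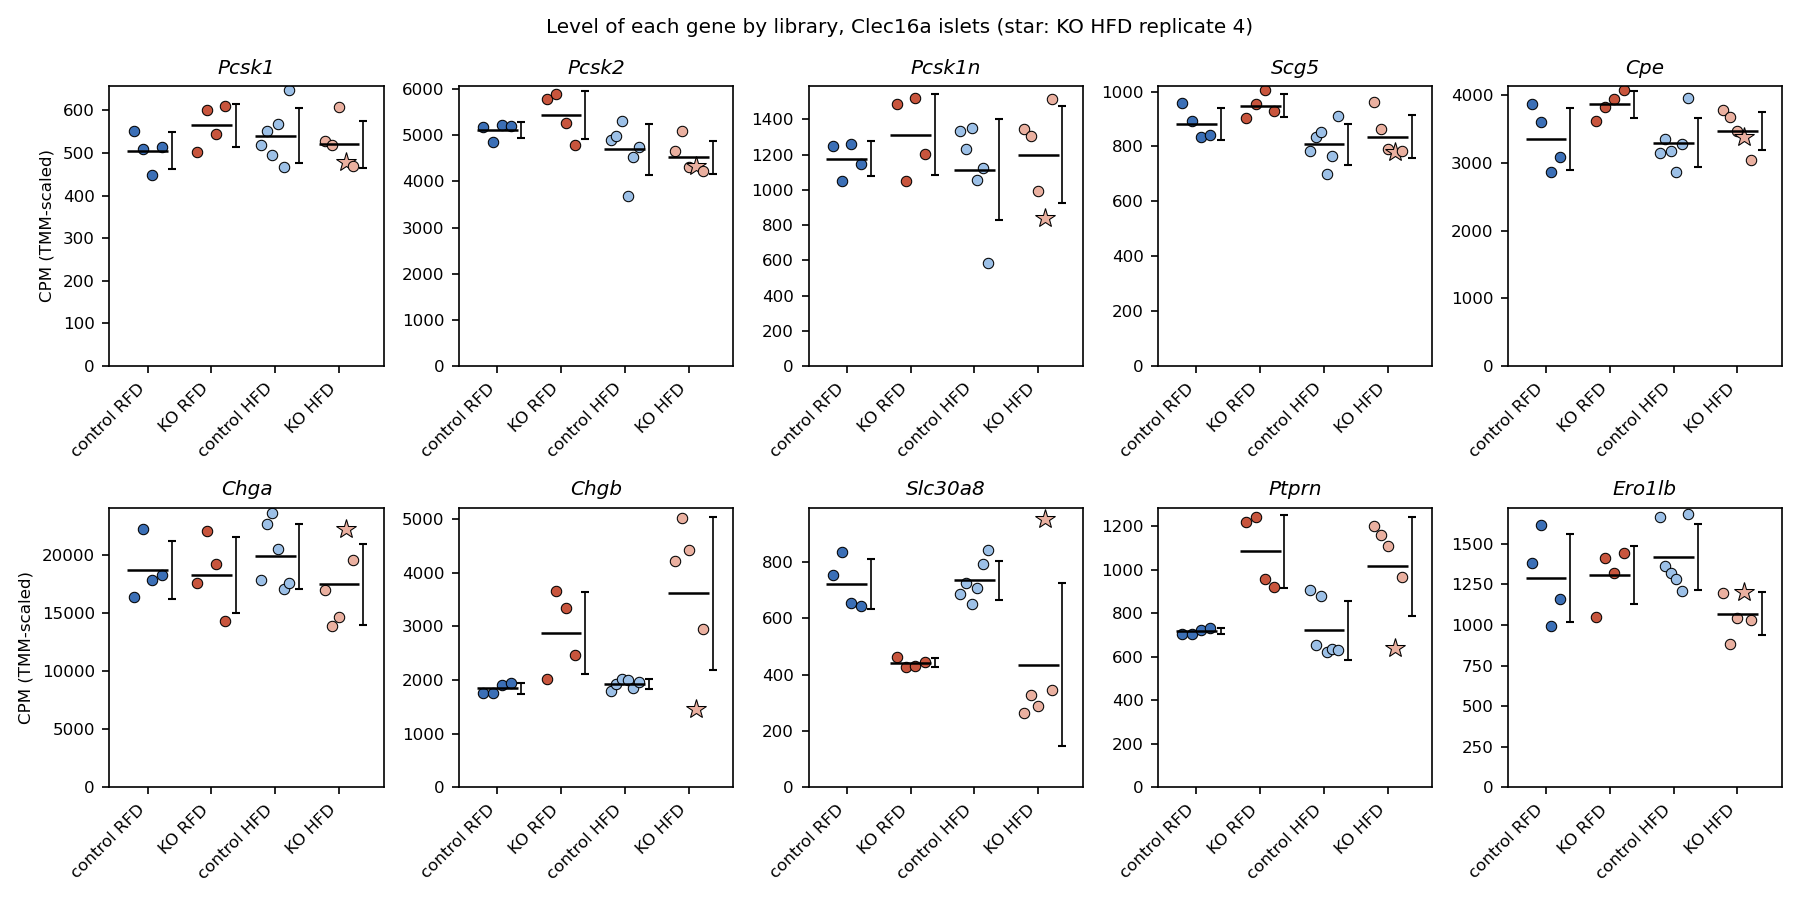
CPM of each of the 10 genes in each Clec16a islet library by label and diet, with 1 point per library, horizontal lines at group means, bars of 1 SD and a star for replicate 4 of the libraries labelled KO on HFD. Chgb and Ptprn lie higher and Slc30a8 lower in the libraries labelled KO on both diets, except for the starred library, at 1462, 642.6 and 952.9 CPM in that order.

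**Figure D4:**
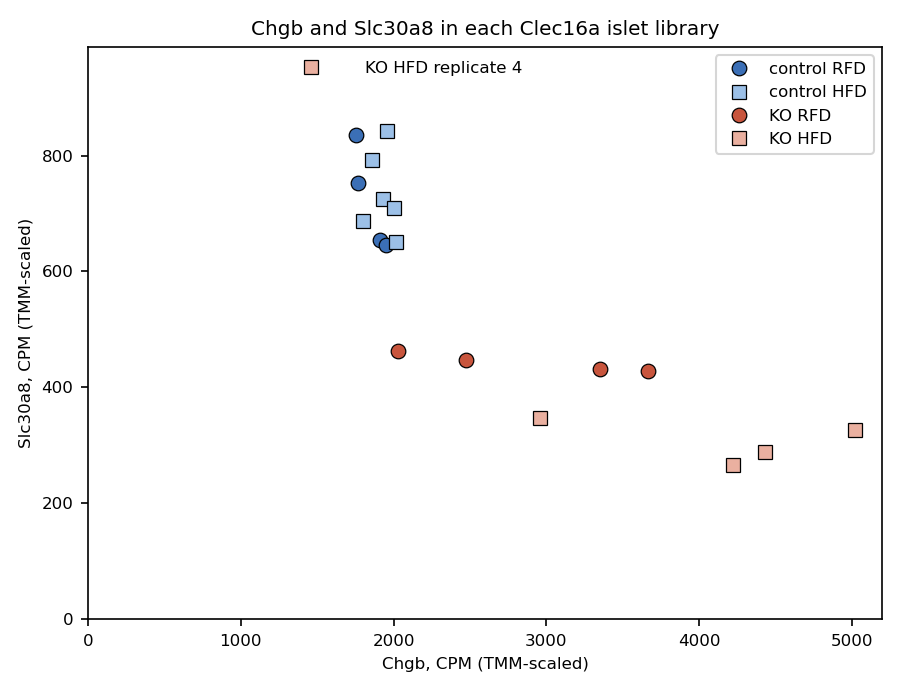
CPM of Chgb against CPM of Slc30a8 in each of the 19 Clec16a islet libraries, by label and diet, with replicate 4 of the libraries labelled KO on HFD named beside its point. Libraries labelled KO other than the named one have 2028 to 5019 CPM of Chgb and 265.8 to 462.6 CPM of Slc30a8, while controls have 1757 to 2018 and 645.4 to 842.4 CPM.

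The ratio of Chga to Chgb counts on RFD was 5.75 to 8.67 in the libraries labelled KO and 9.29 to 12.65 in controls, lower in 4 of 4, by −0.64 on the log2 scale. The exact two-sided permutation p was 0.0286, the smallest for 4 against 4, and 0.114 after adjustment over the 12 ratio tests. On HFD it was 2.78 to 6.61 in 4 of 5 libraries labelled KO and 15.2 in replicate 4, against 8.997 to 11.74 in controls (−0.99, exact permutation p = 0.0476, adjusted 0.137). Without replicate 4 the difference was −1.38 (exact permutation, adjusted p = 0.0286). Chga itself was at 14310 to 22110 CPM in RFD libraries labelled KO and 16400 to 22230 CPM in RFD controls. The log2 ratios of Pcsk1 to Pcsk1n, Pcsk2 to Scg5 and Pcsk1 to Pcsk2 differed by 0.01, −0.02 and 0.07 on RFD and by −0.18, −0.10 and −0.01 on HFD, with no adjusted exact permutation p under 0.35.

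Of the 12 other cargo and membrane genes, 3 rose on each diet in the libraries labelled KO, and they were Vgf, Scg2 and Nucb2 both times. Of all genes tested, 3.99% were called higher on RFD and 5.62% on HFD. Vgf, a granin-family precursor of secreted peptides, was at 68.45 to 123.6 CPM on RFD against 14.37 to 31.6 CPM in controls (log2 fold change 2.06, SE 0.43, adjusted p = 0.00868). On HFD it was at 16.99 to 101.6 CPM against 9.102 to 32.19 CPM (2.05, SE 0.37, adjusted p = 0.00196), and the lowest value was replicate 4. Scg2, the granin secretogranin II, rose by 0.68 (SE 0.19, adjusted p = 0.0331) on RFD and 0.59 (SE 0.16, adjusted p = 0.0256) on HFD on the log2 scale. Nucb2, the nesfatin precursor, rose by 0.74 (SE 0.19, adjusted p = 0.0211) and 0.94 (SE 0.16, adjusted p = 0.00141). Ins2 had a log2 difference of −0.45 on HFD (SE 0.15, adjusted p = 0.0652). Without replicate 4 the HFD count of this list was 3 higher and 3 lower, with Vgf at 2.31, Scg2 at 0.75, Nucb2 at 1.10 and Ins2 at −0.51 (adjusted p = 0.0216). That library was picked after its values were seen, so the call of Ins2 and the list count without it are a description and no support.

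Genes of granule transport and docking were lower where they were called on RFD, with 4 of 25 docking genes and 2 of 18 biogenesis genes. Over all genes tested, 3.54% were called lower on RFD, and 3.96% lower and 5.62% higher on HFD. The list counts were not tested against these shares. Sytl4 fell by 1.03 (SE 0.30, adjusted p = 0.0396) on RFD and by 1.17 (SE 0.26, adjusted p = 0.00770) on HFD. Rab37 fell by 1.26 (SE 0.31, adjusted p = 0.0171) and 1.10 (SE 0.27, adjusted p = 0.0128), and Rab27a, the small GTPase that Sytl4 binds, by 0.40 (SE 0.09, adjusted p = 0.0103) and 0.37 (SE 0.08, adjusted p = 0.00419). On HFD the docking list had 5 lower and 1 higher, Cadps2 (0.68, SE 0.16), and the biogenesis list 3 lower and 2 higher, Ccdc186 and Rab3d. On total counts the docking list had 2 lower on RFD, and 1 higher and 1 lower on HFD, and Rab27a lost its HFD call (adjusted p = 0.0777). As a description alone, the HFD values without replicate 4 were −1.58 for Sytl4, −1.65 for Rab37 and −0.43 for Rab27a. The counts without it were 7 lower and 1 higher for docking and 3 lower and 3 higher for biogenesis. Of 18 folding genes, 0 were called on RFD, where 17 estimates lay above 0, and 1 was called on HFD, P4hb (0.42, SE 0.12, adjusted p = 0.0326), where all 18 lay above 0. On HFD the folding list had 4 higher on total counts and, as a description alone, 3 higher without replicate 4. Among other processing enzymes, Qpct (−0.85, SE 0.23, adjusted p = 0.0283) fell on RFD, and Pcsk6 (0.30, SE 0.09, adjusted p = 0.0495) rose on HFD.

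Endothelial markers were higher in the libraries labelled KO in 6 of 6 genes on both diets, with summed levels of 671.4 to 784.7 CPM against 400.7 to 439.1 CPM on RFD and 430.1 to 786.1 CPM against 383.4 to 505.8 CPM on HFD. Replicate 4 on HFD was the lowest of its group at 430.1 CPM. Fibroblast markers were higher in 2 of 6 genes on RFD and 4 of 6 on HFD. Beta cell markers were lower in 2 of 9 on each diet. As a description alone, they were lower in 4 of 9 on HFD without replicate 4, which left the HFD endothelial and fibroblast counts at 6 and 4. Of 7 macrophage markers 1 was lower on each diet, with sums of 112 to 155.5 CPM against 163.3 to 193.2 CPM on RFD, without overlap, and 106.9 to 195.7 CPM against 114 to 215.3 CPM on HFD. Exocrine markers were called in 0 of 12. Summed alpha, delta, pancreatic polypeptide cell and duct markers overlapped between labels on both diets. Alpha sums on RFD were 60080 to 130900 CPM against 56800 to 78620 CPM in controls. On RFD the duct marker Spp1 was called higher (2.55, SE 0.45, adjusted p = 0.00375), and no alpha, delta or pancreatic polypeptide cell marker was called. The part of these markers in the results above was not tested.

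The diets were compared within each label. In controls 0.0406% of genes were called between HFD and RFD in either direction, 7 genes in all, and none of the 10 granule genes was among them, the smallest adjusted p of the 10 being 0.999. DESeq2's Wald test called 54 genes there, and 973 had an unadjusted p under 0.05 by edgeR. In the libraries labelled KO 0.0116% of genes were called, which is 2 genes, against 42 by the Wald test and 946 at an unadjusted p under 0.05, again with none of the 10. That count ran from 0 to 31 with 1 library left out, and was 27 without HFD replicate 4 and 31 without RFD replicate 4 of the libraries labelled KO, with none of the 10 among them in either fit. Pcsk2 came nearest, with a log2 difference of −0.27 on HFD (SE 0.11, unadjusted p = 0.0209, adjusted p = 0.787). It was at 4232 to 5097 CPM on HFD and at 4793 to 5907 CPM on RFD, so the diets overlapped. Summed alpha cell markers were lower on HFD than on RFD without overlap in the libraries labelled KO (43430 to 58260 against 60080 to 130900 CPM). They were likewise apart in controls (33370 to 51890 against 56800 to 78620 CPM). Summed exocrine markers overlapped in the libraries labelled KO and were higher on HFD in controls (10330 to 31540 against 4673 to 10190 CPM). The part of these markers in the diet comparisons was not tested.

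The interaction of label with diet was called for 0% of genes by edgeR, against 20 genes by the Wald test and 406 at an unadjusted p under 0.05. Ero1lb had the smallest p of the 10, with an effect lower on HFD than on RFD by a log2 difference of −0.43 (SE 0.20, unadjusted p = 0.0466, adjusted p = 0.9999). For Chgb the difference between diets in the effect was 0.27, with a 95% interval from −0.37 to 0.91, and for Slc30a8 −0.04, with an interval from −0.76 to 0.67.

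Side by side, the log2 fold changes in Tfam KO islets, in Clec16a islets on RFD and in Clec16a islets on HFD were −0.26, 0.64 and 0.91 for Chgb, −0.61, −0.71 and −0.75 for Slc30a8, −0.04, 0.60 and 0.49 for Ptprn, −0.94, 0.02 and −0.41 for Ero1lb and −0.83, −0.03 and −0.19 for Chga. Without replicate 4 of the libraries labelled KO the HFD values were 1.11 for Chgb, −1.26 for Slc30a8, 0.62 for Ptprn, −0.45 for Ero1lb and −0.29 for Chga. The experiments were fitted apart, share no library, and differed in more than the labelled gene, so the difference between them was not tested.

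**Figure D5:**
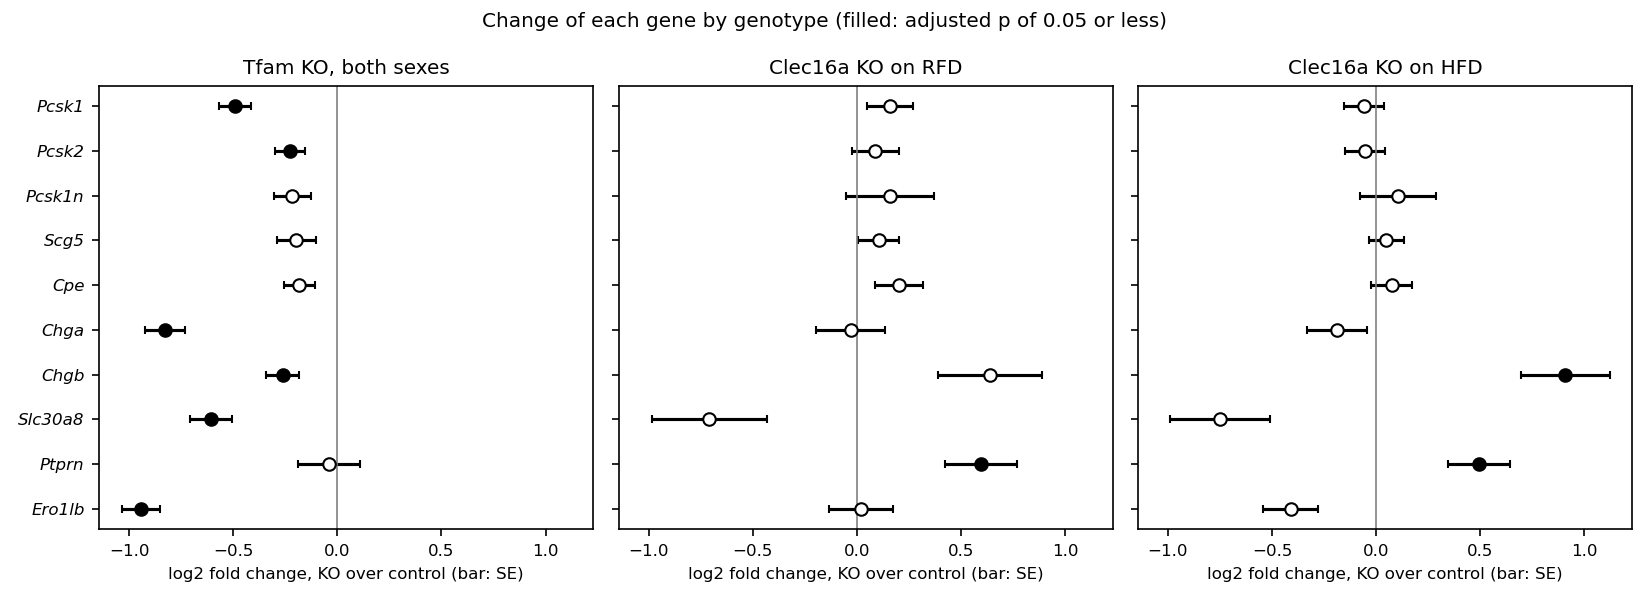
Log2 fold changes of the 10 genes, labelled KO against control, for Tfam islets with sex as an additive term and for Clec16a islets on RFD and on HFD, with bars of 1 SE and filled points where the adjusted p is 0.05 or less. The filled points are 6 below 0 for Tfam, Ptprn above 0 for Clec16a on RFD, and Chgb and Ptprn above 0 for Clec16a on HFD.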

How the data were processed

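Each deposited file listed raw counts, TPM and CPM for 55487 genes, per the file headers. The submitters' processing notes name GRCm38, STAR 2.6.1b, RSEM 1.3.1, featureCounts, DESeq2, FastQC and MultiQC, and which of them made which column is not given in the sources used here. The deposited counts were used as they stood, the authors' TPM only for levels between genes, and the authors' CPM, which equalled the count over the library's total, only as a check. Of the identifiers, 55141 were found in GENCODE M21, from which positions are taken.

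The Tfam and Clec16a libraries were fitted separately with edgeR 4.0.16 in R 4.3.3 (quasi-likelihood F-test, two-sided, TMM, filterByExpr on the group, Benjamini-Hochberg adjustment over all genes tested). All groups of an experiment shared 1 estimate of the spread, and all 10 genes passed the filter in both experiments. The standard error was the size of the log2 fold change over the square root of F, and 95% intervals are 1.96 standard errors either way. These nominal intervals are narrower than the F-test implies. That of Scg5 in Tfam KO islets with sex additive, −0.3836 to −0.0108, left out 0 although the unadjusted F-test p was 0.0548. CPM values in the text were computed from the counts on TMM-scaled library sizes. Ratios were tested by exact permutation in Python 3.11.15 with scipy 1.17.1. The fits were tested on simulated data.

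The genes and lists were chosen with earlier results of these data known. The genes named are the 10, Tfam, Clec16a and, per comparison and list, at most the 4 called genes with the smallest adjusted p. Overlapping genes, the genes behind a summed level and Ins2 on HFD are named outside that rule, after their values were seen. Not every gene the rule admits is reported here. Replicate numbers recur between groups, but deviations of same-numbered libraries correlated above 0.1 in only 2 of 6 Tfam and 3 of 25 Clec16a pairs, so libraries were treated as unpaired. Alternatives were DESeq2's size factors, total counts, other filters on low counts, DESeq2 1.42.0's Wald test, a replicate block, lane, an exocrine covariate, only the groups compared and each library left out in turn. Depth was high enough that no value of the 10 genes in islets lay near the 3 counts that a count of 0 allows.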

Additional observations from a re-analysis of the deposited data

Results flagged for a closer look

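In 60 sets of values, 1 gene in 1 group of 4 to 6 libraries, 4 held a library whose gap to its nearest neighbour exceeded Dixon's 95% critical value. Chance alone flags about 1 in 20 such sets.

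Slc30a8 was at 952.9 CPM in replicate 4 of the libraries labelled Clec16a KO on HFD, against 265.8 to 346.2 CPM in the other 4 libraries of that group. Chga, at 21360 CPM, and Scg5, at 1404 CPM, were highest in Tfam control female 4, against 15330 to 17020 CPM and 906 to 1018 CPM in the other 4 female controls. That library also had the highest glucagon transcript (Gcg) of the 14 Tfam libraries, at 102200 CPM. Its summed beta (295400 CPM), alpha (106300 CPM) and delta cell markers (7508 CPM) were each the highest of these libraries too. Without it the additive Tfam comparison still called Chga lower. Pcsk2 was at 4853 CPM in Clec16a control RFD replicate 2, below the other 3 libraries of its group at 5172 to 5231 CPM.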

How the results depend on the processing

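Outside the fits without 1 library, 379 single-gene values kept their direction and side of the threshold, 16 lost a call, 11 gained one and 14 changed sign. All 12 ratios kept theirs, and 126 counts stayed within 1.5 times while 24 did not. On total counts, genes called became 6825 (Tfam additive), 4766 (females), 3169 (males) and 1 (diet, labelled KO), with 2 of the 10 genes called in females. Estimates that changed sign there were Cpe 0.03, Scg5 0.0195 and Ptprn 0.17 (additive), Pcsk1n 0.0176 and Ptprn 0.13 (females), Cpe 0.12, Scg5 0.10 and Chgb 0.0448 (males), Chga 0.0007 (RFD) and Pcsk1 0.0691 and Pcsk2 0.0727 (HFD). With no filter, 30 genes were called for the sex interaction and 6 for diet in the libraries labelled KO. The Wald test called 2708 genes in males, 34 for the sex interaction, 54 for diet in controls, 42 for diet in libraries labelled KO, 20 for the diet interaction and 4 of the 10 genes on HFD. An exocrine covariate left 0 of the 10 genes on RFD, 4 genes for diet in controls and 0 in libraries labelled KO. A lane term left 0 of the 10 genes on RFD and 3 genes for diet in controls. Fits of only the groups compared called 3 of the 10 on RFD, 1 on HFD and 0 genes for diet in libraries labelled KO. The cause of these shifts was not tested.

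With the replicate number as a block, which the labels do not tie to animals, Ptprn was 0.03 in the additive Tfam comparison, and Pcsk2 lost its call (−0.21, adjusted p = 0.0515). On HFD 975 genes and 1 of the 10 were called, Ptprn losing its call (0.45, adjusted p = 0.0693), with Pcsk1 at 0.0039 and Pcsk1n at −0.0395. For diet in controls 3 genes were called.

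Without 1 library at a time, genes called ran from 1336 to 2626 (females), 578 to 2541 (males), 0 to 1 (sex interaction), 523 to 2015 (RFD), 786 to 3369 (HFD), 3 to 12 (diet, controls) and 0 to 31 (diet, labelled KO). Of the 10 genes, 0 to 3 were called on RFD and 1 to 4 on HFD. Where this left 1 male KO library, it was taken to vary like the other groups. Ranges that crossed 0 were Ptprn −0.11 to 0.0857 (additive), −0.21 to 0.11 (females) and −0.0362 to 0.13 (males), Chgb −0.32 to 0.0047 (males), Chga −0.13 to 0.0715 and Ero1lb −0.081 to 0.15 (RFD), and Pcsk1 −0.12 to 0.0017, Pcsk1n −0.0254 to 0.21 and Scg5 −0.0063 to 0.0861 (HFD). Log2 ratios ran from −0.12 to 0.13 for Pcsk1 to Pcsk1n, −0.0758 to 0.0292 for Pcsk2 to Scg5 and −0.0236 to 0.16 for Pcsk1 to Pcsk2 on RFD. On HFD they ran from −0.0812 to 0.0763 for Pcsk1 to Pcsk2, −0.30 to 0.0507 for Pcsk1 to Pcsk1n and −1.38 to −0.76 for Chga to Chgb. In Tfam islets Pcsk1 to Pcsk2 ran from −0.31 to −0.22.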

Other observations

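Control islets of the 2 experiments differed in the deposited TPM of some of the 10 genes. Pcsk1 lay at 269.1 to 505.3 TPM in the 8 Tfam controls and at 164.4 to 252.1 TPM in the 10 Clec16a controls, with no overlap. Ero1lb lay at 616.5 to 1174 TPM and at 329.1 to 552.5 TPM, also with no overlap. The share of all genes that separate the experiments this way was not determined, so no trait particular to these 2 genes follows. Chga, at 12420 to 13630 and 11510 to 16900 TPM, overlapped. The experiments differ in depth, strain information is not given in the labels, and sex is labelled in one of them and diet in the other, so what sets these levels apart cannot be told apart and no test was made.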
